A study of Mus musculus with 24 samples.

Results

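Sleep deprivation was examined in the RNA that remained after the RNA of Homer1a-expressing cells had been pulled out of mouse brain homogenates. The members are the 4 supernatant arrays among the 24 arrays of the series, grouped by the source given for each sample as 2 after sleep deprivation (numbers 14 and 15) and 2 controls (numbers 13 and 16). Number 13 carries a title for sleep deprivation and a source for control, and was kept as control. The 8 whole brain arrays of the same study, 4 after sleep deprivation (numbers 18 to 21) and 4 controls (numbers 22 to 25), served as the comparison. All mice were males aged 12 ± 1 weeks, and all were killed at zeitgeber time 6. Sleep-deprived mice had been kept awake by gentle handling for 6 h from light onset, and control mice had been left undisturbed over the same hours. The brains behind all 4 supernatants had been fixed by perfusion with 1% formaldehyde, and anti-FLAG beads had then removed RNA by mRNA tagging, a method based on a tagged protein that binds poly(A) tails in the chosen cells. The supernatant is total RNA of what the beads left, so it holds RNA of all other cells and whatever Homer1a cell RNA escaped the beads. Whole brain is total RNA with no pull-down, and the sources used here give neither the strain of the mice nor the promoter that drives the tag. Pooling of animals is not mentioned, and p-values measure the spread between these samples.

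Sleep loss is known to raise activity-induced immediate early genes such as Fos, Arc and Homer1 in the forebrain. Gentle handling also raises corticosterone, and the glucocorticoid receptor then switches on genes such as Sgk1, Tsc22d3 and Fkbp5 in neurons, glia and vessels. Prolonged waking is further known to raise chaperones of the endoplasmic reticulum, among them Hspa5, and to lower the cold-inducible RNA-binding protein Cirbp.

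Values are log2 intensities per probe set, and a difference is the mean of sleep-deprived arrays minus the mean of control arrays, with its standard error (SE) from limma. A probe set was called at a Benjamini-Hochberg adjusted p under 0.05 over 45037 probe sets. With 2 arrays a side an exact permutation test cannot go below p = 0.33 (two-sided), so sizes and single arrays come first. The limma fit shared 1 spread between the 4 supernatant and 8 whole brain arrays, and called 467 probe sets in supernatant (1.04% of those tested). Of these 198 were higher (0.44%) and 269 lower (0.597%) after sleep deprivation. The spread within groups was larger in supernatant, with a median SD over probe sets of 0.230, against 0.183 in whole brain. When each extract had its own variance, an alternative added after seeing this, 1 probe set was called higher and 0 lower (1397 and 1979 at an unadjusted p under 0.05). The 4 supernatants fitted alone gave 0 calls in limma, with 1278 higher and 2001 lower at an unadjusted p under 0.05. Each call below therefore holds with a shared spread, and Crh alone among them also passed with 1 variance per extract.

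**Figure D1:**
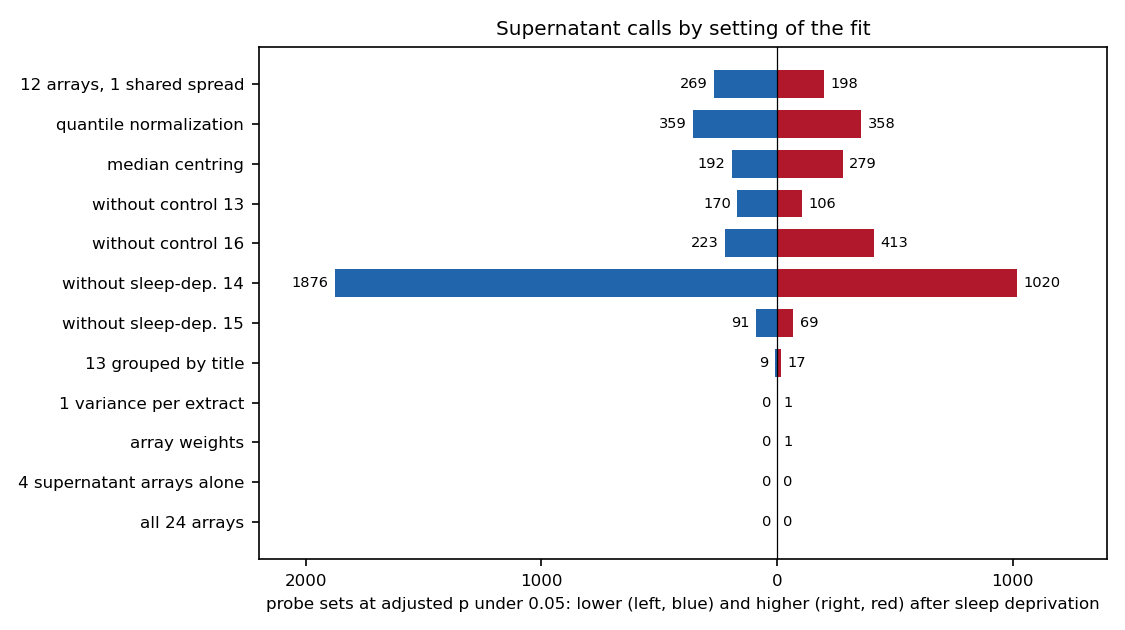
Number of probe sets called in supernatant (horizontal axis, lower to the left in blue, higher to the right in red) under 12 settings of the fit (rows). The shared spread gives 198 higher and 269 lower, leaving out sleep-deprived supernatant 14 gives 1020 and 1876, leaving out 15 gives 69 and 91, and the 4 supernatants alone give 0 and 0.

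The arrays were alike in median level, while the extracts differed at control probe sets. Array medians lay between 6.09 and 6.15 in sleep-deprived and 6.15 and 6.21 in control supernatants, and between 6.04 and 6.16 in sleep-deprived and 6.13 and 6.24 in control whole brains. The small-subunit ribosomal RNA control read 14.23 to 14.26 in sleep-deprived and 14.23 to 14.42 in control supernatants. In whole brains it read 13.79 to 13.86 and 13.79 to 13.94. The tail end minus the start end of the actin control was −0.81 to −0.79 and −0.79 to −0.73 in supernatants, and −0.60 to −0.31 and −0.56 to −0.20 in whole brains, in the same order. For the Gapdh control it had the opposite sign and overlapped between extracts. It was 2.307 to 2.590 and 2.348 to 2.485 in supernatants, and 2.737 to 2.951 and 2.494 to 2.782 in whole brains. Supernatants correlated with each other at 0.964 to 0.981 across probe sets, and the lowest correlation within whole brain was 0.984. Sleep-deprived supernatant 15 stood apart from the other 3, with the pituitary markers Gh at 10.92, against 5.61 in sleep-deprived 14 and 6.89 and 6.28 in controls 13 and 16, and Prl at 10.61, against 4.35, 6.18 and 5.34 in the same order. Whole brains also varied in these hormones, with Gh between 6.15 and 11.43 in sleep-deprived and 9.47 and 11.59 in control brains. Control supernatant 16 had low cerebellar neuron markers, with a list mean of 8.27, against 9.11 in control 13 and 9.07 and 9.05 in sleep-deprived 14 and 15. Control 13 had the lowest neuron markers, with a mean of 10.51, against 10.82 in control 16 and 10.76 and 10.71 in sleep-deprived 14 and 15. In bulk RNA, fewer cells of a type and less RNA per cell cannot be told apart.

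Despite the name Homer1a-negative, Homer1 RNA was present in the supernatants. The Homer1 probe set 1436387_at averaged 8.76 in sleep-deprived and 7.42 in control supernatants, below the 11.10 of sleep-deprived and 9.89 of control pull-downs. At 1421768_a_at supernatant was the higher extract, with 10.11 in sleep-deprived and 10.02 in control supernatants, against 7.90 in sleep-deprived and 6.76 in control pull-downs. The sources used here do not say which Homer1 transcript a probe set reads, and the labels name amplification for the immunoprecipitated RNA only.

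Control supernatant 13 had control levels of the genes that sleep deprivation raised in whole brain. The 8 whole brain arrays, fitted with no supernatant, called 21 probe sets (0.0466%), 16 higher (0.0355%) and 5 lower (0.0111%) after sleep deprivation. The mean of the 16 was 8.36 and 8.02 in sleep-deprived supernatants 14 and 15, and 6.96 and 7.30 in control supernatants 13 and 16. In whole brain it was 8.25, 8.37, 8.30 and 8.39 after sleep deprivation and 7.35, 7.36, 7.25 and 7.25 in controls. Array 13 thus read lowest of all 12 arrays, on the control side of both extracts. It lay below both sleep-deprived supernatants at 15 of the 16 probe sets, as did control 16, where this held for 25.2% of all probe sets with array 13 and 32.1% with array 16. Across all probe sets array 13 lay above both sleep-deprived supernatants in 41.4% and array 16 in 33.1%.

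Both gene lists that bear on the label gave the same order, but they are not separate from the probe sets above or from each other. Of their genes, 6 glucocorticoid-induced and 3 immediate early genes were themselves called in whole brain at the 1 probe set read for each gene. The immediate early gene Homer1 was called there at other probe sets, 1436387_at and 1425671_at. Per1 and Dusp1 are in both lists. The lists were also chosen with earlier results of these data known. The mean of 32 glucocorticoid-induced genes was 7.84 and 7.89 in sleep-deprived supernatants 14 and 15, and 7.19 and 7.33 in control supernatants 13 and 16. Array 13 was below both sleep-deprived supernatants in 28 of these 32 genes and array 16 in 25. The mean of 52 immediate early genes was 7.53 and 7.54 in sleep-deprived supernatants 14 and 15, and 7.04 and 7.30 in control supernatants 13 and 16. Array 13 was below both sleep-deprived supernatants in 38 of the 52 and array 16 in 32. The levels of array 13 thus went with its source and against its title, within the limit that its neuron markers were also lowest, whose part in the immediate early genes was not tested. A pull-down control carries the number 13 as well, but no label links the animals of the 2 extracts.

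**Figure D2:**
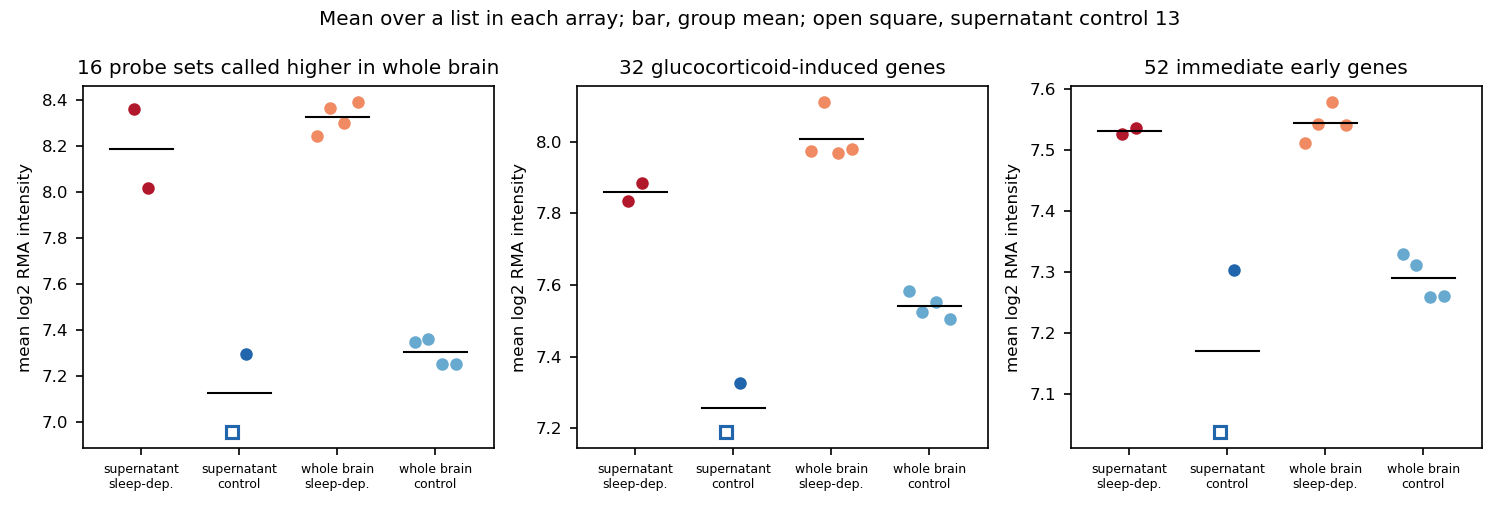
Mean log2 intensity (vertical axis) in each of the 12 arrays, by group, over the 16 probe sets called higher in whole brain, the glucocorticoid-induced genes and the immediate early genes. Bars are group means and the open square is control supernatant 13, which lies below the other control and below both sleep-deprived supernatants in all 3 panels.

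Glucocorticoid-induced genes were the list with the largest median difference of the 11 lists of gene function, at 0.60 in supernatant and 0.44 in whole brain, against −0.04 and −0.07 for all probe sets. Of 33 genes 32 were measured, 30 were higher in sleep-deprived supernatant (43.9% of all probe sets were), and 24 had no overlap between the groups (14.7%). Called higher, as were 0.44% of all probe sets, were 6 (Hif3a, Sgk1, Tsc22d3, Mt2, Plin4 and Fam107a) and called lower 0. Without control 13 the median was 0.54, without sleep-deprived 15 it was 0.51, and without sleep-deprived 14 it was 0.56. Grouping array 13 by its title gave a median of 0.27 with 0 called.

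Sgk1 (1416041_at), a kinase that regulates ion channels and transporters, read 9.46 and 9.51 in sleep-deprived supernatants 14 and 15, and 7.97 and 7.76 in control supernatants 13 and 16. The groups lay far apart relative to the arrays within them. It rose by 1.62 ± 0.22 (adjusted p = 0.00787, limma), which is 3.07-fold, against 1.16 in whole brain. The RefSeq promoters (250 bases before to 50 after each listed start, GRCm38.p6) were searched on both strands for AGAACA followed after 3 bases by TGTTCT, a form of the palindrome that the glucocorticoid receptor binds. This motif was in 3 of 32851 promoters (0.00913%), and Sgk1 was 1 of 29 matched genes of the list with it, at 1 of its 6 listed starts. That window is shown because Sgk1 was called in both extracts, with the motif in capitals, chr10:21993640-21993939, plus strand. A match is a description of letters and no evidence of binding.
Sgk1: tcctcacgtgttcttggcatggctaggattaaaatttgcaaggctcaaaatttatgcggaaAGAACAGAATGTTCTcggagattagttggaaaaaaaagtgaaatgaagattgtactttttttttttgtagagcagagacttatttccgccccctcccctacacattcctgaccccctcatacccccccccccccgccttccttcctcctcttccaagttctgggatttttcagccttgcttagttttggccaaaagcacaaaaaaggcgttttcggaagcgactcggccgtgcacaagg

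Hif3a (1447061_at), of the hypoxia-inducible factor family, read 7.90 and 8.47 in sleep-deprived supernatants 14 and 15, against 6.57 and 6.52 in control supernatants 13 and 16. Tsc22d3 (1420772_a_at), the leucine zipper protein GILZ that carries anti-inflammatory effects of glucocorticoids, read 8.20 and 7.82 in sleep-deprived supernatants, against 6.47 and 6.83 in controls. Both rose, Hif3a by 1.64 ± 0.23 (adjusted p = 0.00787, limma) and Tsc22d3 by 1.36 ± 0.20 (adjusted p = 0.00848, limma). The zinc finger gene Zbtb16 rose by 1.36 ± 0.19 at 1419874_x_at, while 1439163_at, another of its probe sets, read 0.68 (adjusted p = 0.110, limma). Plin4 (1418595_at), a coat protein of lipid droplets, read 6.46 and 6.37 in sleep-deprived supernatants and 5.44 and 5.35 in control supernatants. It rose by 1.02 ± 0.18 (adjusted p = 0.0145, limma) and was the gene with the largest rise in whole brain, 1.48. The metallothionein gene Mt2 (1428942_at), which binds zinc and copper, had the closest replicates, 10.57 and 10.59 in sleep-deprived and 9.50 and 9.52 in control supernatants. It rose by 1.07 ± 0.17 (adjusted p = 0.00872, limma), against 0.65 in whole brain.

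Fam107a, an actin-binding protein induced by stress, rose by 0.93 ± 0.19 (adjusted p = 0.0301, limma), with 0.149 without control 13 and 0.0917 without sleep-deprived 15. Hif3a, Sgk1, Tsc22d3, Zbtb16 (1419874_x_at), Plin4 and Mt2 stayed called without each of the 4 supernatants in turn. Fkbp5, the receptor's co-chaperone and feedback inhibitor, read 7.80 and 7.70 in sleep-deprived and 7.23 and 7.18 in control supernatants, without overlap. Its difference of 0.55 did not pass (adjusted p = 0.135, limma) and was 0.56 in whole brain. Mertk, a phagocytosis receptor of astrocytes and microglia that was called in whole brain at 0.72, read 0.42 in supernatant (adjusted p = 0.282, limma). Angptl4 and Edn1 were the 2 members that read lower, both at −0.19.

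**Figure D3:**
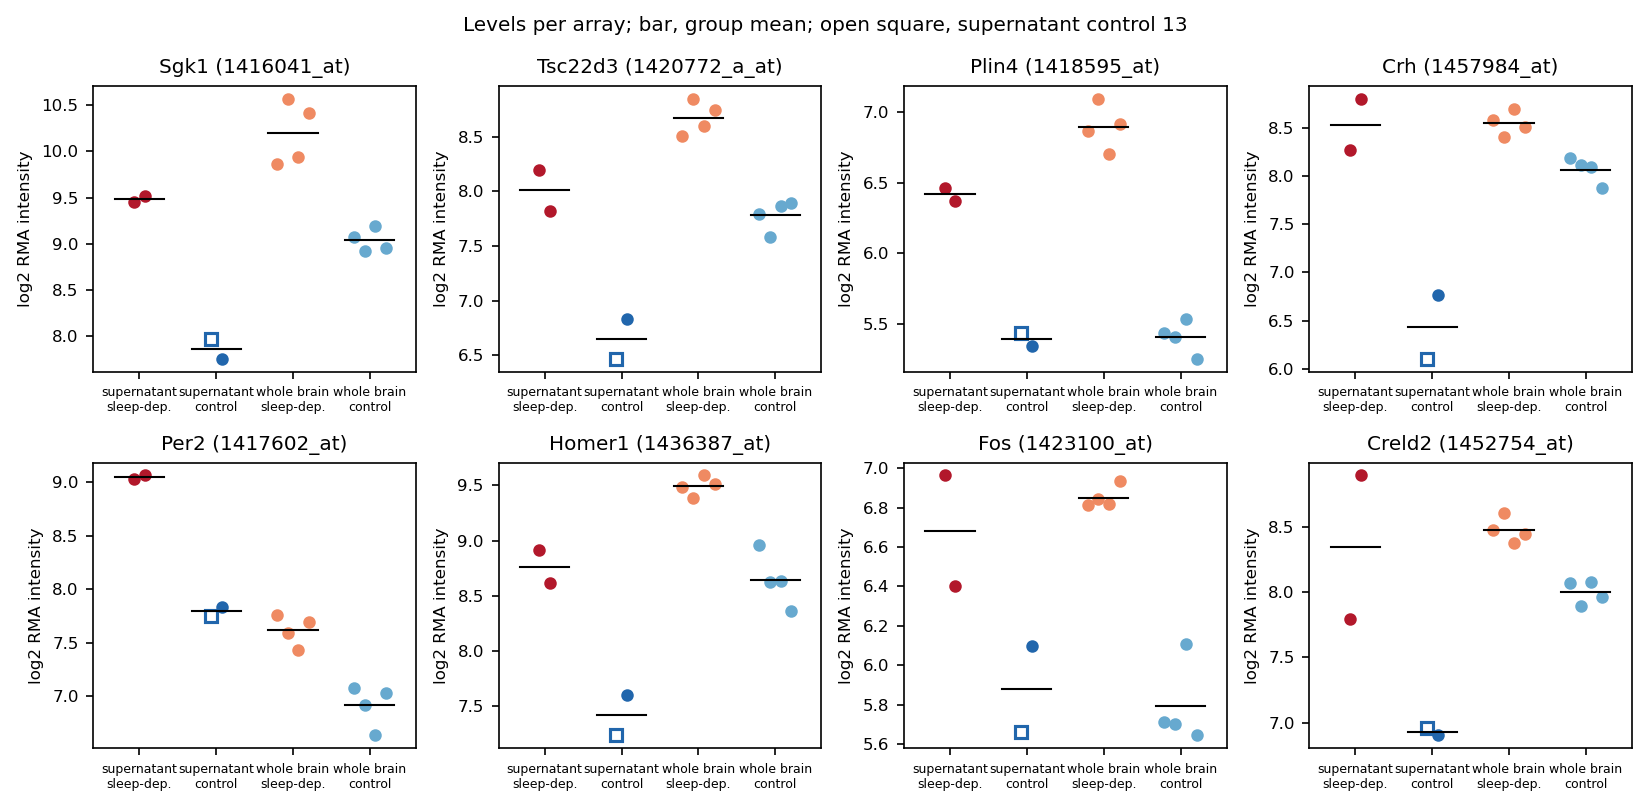
Log2 intensity (vertical axes) of 8 probe sets in each of the 12 arrays, by group. Bars are group means, and the open square is control supernatant 13. Sgk1, Tsc22d3, Plin4, Crh, Per2, Homer1 (1436387_at), Fos and Creld2 show no overlap between sleep-deprived and control supernatants, and Crh in control supernatants lies below every whole brain value.

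Immediate early genes were higher in 39 of 52 cases, with a median difference of 0.29 in supernatant and 0.23 in whole brain. In 28 of them the supernatant groups did not overlap with sleep-deprived higher (14.7% of all probe sets), and Fosl2, Nfil3 and Nr4a2 were called (0.44% of all probe sets were called higher). Without control 13 the median was 0.23, without sleep-deprived 15 it was 0.27, and with array 13 grouped by title it was 0.018. Without control 16 the median was 0.36 and without sleep-deprived 14 it was 0.38. Fosl2 (1437247_at), a partner of Jun in the AP-1 complex, read 7.25 and 7.61 in sleep-deprived supernatants 14 and 15, against 5.75 and 6.74 in control supernatants 13 and 16. Nr4a2 (1455034_at), an orphan nuclear receptor, read 7.79 and 8.07 in sleep-deprived supernatants, against 6.54 and 7.25 in controls. In both, control 13 lay well below control 16. Fosl2 rose by 1.18 ± 0.26 (adjusted p = 0.0397, limma) and Nr4a2 by 1.04 ± 0.23 (adjusted p = 0.0378, limma), and without control 13 the adjusted p were 0.216 and 0.202. Nfil3 (1418932_at), a repressor that also acts in the clock, rose by 1.05 ± 0.18 (adjusted p = 0.0151, limma) and stayed called without control 13 (adjusted p = 0.0283) but not without control 16 (adjusted p = 0.0530).

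Genes of the list called in whole brain did not pass in supernatant, apart from 1 Homer1 probe set. Fos (1423100_at), the AP-1 subunit used as a marker of neuronal activity, read 6.96 and 6.40 in sleep-deprived supernatants 14 and 15, against 5.66 and 6.10 in control supernatants 13 and 16. Its difference was 0.80 ± 0.22 (adjusted p = 0.0797, limma), against 1.06 in whole brain, and was 0.59 without control 13 and 0.52 without sleep-deprived 14. Arc (1418687_at), which controls receptor traffic at synapses, read 8.56 and 8.66 in sleep-deprived supernatants, against 7.48 and 8.09 in controls. The Arc groups did not overlap, and its difference of 0.83 did not pass, against 1.23 in whole brain, where it was called. The transcription factor gene Egr2 differed by 1.11 at 1427682_a_at (adjusted p = 0.0712, limma) and by 1.56 at 1427683_at (adjusted p = 0.0661, limma), against 1.14 and 1.12 in whole brain. At 1427683_at control 13 read 5.64 and control 16 read 7.50, against 8.26 and 8.01 in the sleep-deprived supernatants. Egr1 (0.75), Fosb (1.01) and the secreted neuropeptide precursor gene Vgf (0.68) also had groups without overlap and did not pass (adjusted p = 0.126, 0.0669 and 0.0752, limma). Without control 13 both Egr2 probe sets differed by 0.64, Egr1 by 0.31, Fosb by 0.48 and Arc by 0.52. Nr4a3, an orphan nuclear receptor, read 0.57 in supernatant and 0.85 in whole brain, and the phosphatase gene Dusp1 read 0.45 in supernatant and 0.77 in whole brain, neither passing in supernatant (adjusted p = 0.218 and 0.297, limma).

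Homer1, the gene whose short activity-induced form Homer1a defines the pulled-down cells, rose at 1 of its 6 probe sets. At 1436387_at it read 8.91 and 8.62 in sleep-deprived supernatants 14 and 15, and 7.23 and 7.60 in control supernatants 13 and 16. The rise was 1.35 ± 0.20 (adjusted p = 0.00848, limma), 2.55-fold, against 0.85 in whole brain, and it stayed called without each supernatant in turn. At the other 5 probe sets the groups overlapped and the differences ran from −0.58 (1425710_a_at) to 0.27 (1437363_at). One of those, 1425671_at, was called in whole brain at 0.84, and read 10.33 and 8.96 in sleep-deprived supernatants 14 and 15, against 9.31 and 9.46 in control supernatants 13 and 16. The sleep-deprived arrays thus lay on either side of both controls there.

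Corticotropin-releasing hormone (Crh, 1457984_at), the hypothalamic peptide that starts the stress hormone cascade and is also made by cortical interneurons, had the largest difference of all called genes. It read 8.27 and 8.80 in sleep-deprived supernatants 14 and 15, and 6.10 and 6.76 in control supernatants 13 and 16. The rise was 2.10 ± 0.23 (adjusted p = 0.00207, limma), 4.30-fold. In whole brain it read 8.59, 8.41, 8.70 and 8.52 after sleep deprivation and 8.19, 8.11, 8.10 and 7.88 in controls, a difference of 0.48 (adjusted p = 0.207, limma, 8 arrays). Sleep-deprived supernatants lay at the level of whole brain and control supernatants below it. Crh stayed called without control 13 (1.77, adjusted p = 0.0179), without sleep-deprived 15 (1.84, adjusted p = 0.0217) and with 1 variance per extract (adjusted p = 0.026). The difference between extracts, 1.62, did not pass (adjusted p = 0.112, limma). The mean of 12 hypothalamic markers was 6.07 and 6.50 in sleep-deprived supernatants 14 and 15, against 5.95 and 6.05 in control supernatants 13 and 16. The part of these markers in the Crh difference was not tested.

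Dio2, the deiodinase that makes active thyroid hormone in astrocytes and tanycytes, was called at 1418937_at and 1418938_at. At 1418937_at it read 10.11 and 9.57 in sleep-deprived supernatants 14 and 15, and 8.38 and 8.92 in control supernatants 13 and 16. It rose by 1.19 ± 0.23 (adjusted p = 0.0229, limma), against 1.05 in whole brain, and at 1418938_at by 1.28 (adjusted p = 0.0208, limma). Without control 13 the adjusted p were 0.126 and 0.116. All 10 measured genes of thyroid hormone action and transport read higher (43.9% of all probe sets did), with a median of 0.32 in supernatant and 0.06 in whole brain. Dio2 was the 1 called (0.44% of all probe sets were called higher). The receptor gene Thra read 0.80 (adjusted p = 0.142, limma), with 0.25 without control 13 and 1.34 without control 16, and the hormone-responsive gene Thrsp 0.63 (adjusted p = 0.0793, limma). The Dio2 promoter, chr12:90738989-90739288, minus strand, is shown with TGACGTCA in capitals, the cAMP response element bound by CREB. This motif was in 588 of 32851 promoters (1.79%), and in 4 of 38 matched immediate early genes (Dusp1, Btg2, Maff and Plk2).
Dio2: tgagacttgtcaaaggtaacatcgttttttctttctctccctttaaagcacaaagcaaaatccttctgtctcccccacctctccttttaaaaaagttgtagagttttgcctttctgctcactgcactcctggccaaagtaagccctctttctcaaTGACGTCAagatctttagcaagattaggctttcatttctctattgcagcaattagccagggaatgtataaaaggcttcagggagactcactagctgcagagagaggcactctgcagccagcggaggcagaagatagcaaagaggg

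Of 21 circadian clock genes, 10 read higher and 11 lower, with a median of −0.02 in supernatant and 0.10 in whole brain. Per2 and Nfil3 were called higher (0.44% of all probe sets were). Per2 (1417602_at), a repressor of the molecular clock, read 9.03 and 9.06 in sleep-deprived supernatants 14 and 15, and 7.75 and 7.83 in control supernatants 13 and 16. It rose by 1.25 ± 0.18 (adjusted p = 0.00848, limma), 2.38-fold, and its 0.71 in whole brain did not pass (adjusted p = 0.0908, limma, 8 arrays). The call held without each supernatant in turn. Per1, which is also a glucocorticoid-induced and immediate early gene, read 6.59 and 7.31 in sleep-deprived and 6.37 and 6.04 in control supernatants, and did not pass (adjusted p = 0.154, limma). The clock activator genes Clock (−0.28) and Arntl (0.27) and the output gene Dbp (−0.20) had overlapping groups.

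Chaperones of the endoplasmic reticulum and genes of the unfolded protein response read higher in 19 of 29 cases, with a median of 0.21 in supernatant and 0.11 in whole brain. Creld2, Herpud1, Manf and Hspa5 were called higher (0.44% of all probe sets were) and 0 lower. The supernatant median was 0.15 without control 13, 0.11 without control 16, 0.21 without sleep-deprived 15 and 0.21 without sleep-deprived 14. Creld2 (1452754_at), a disulfide isomerase-like protein of that compartment, read 7.79 and 8.89 in sleep-deprived supernatants 14 and 15, against 6.96 and 6.90 in control supernatants 13 and 16. It rose by 1.41 ± 0.25 (adjusted p = 0.0151, limma), and read 0.86 without sleep-deprived 15 (adjusted p = 0.0650) and 1.44 without control 13 (adjusted p = 0.0532). Herpud1 (1435626_a_at), which helps to clear misfolded proteins, read 6.66 and 6.71 in sleep-deprived supernatants and 5.78 and 5.67 in control supernatants. Herpud1 rose by 0.96 ± 0.16 (adjusted p = 0.0122, limma), read −0.01 in whole brain, and stayed called without each supernatant in turn. The difference of Herpud1 between extracts, 0.97, did not pass (adjusted p = 0.133, limma). Manf, a secreted survival factor, rose by 0.92 ± 0.19 (adjusted p = 0.0295, limma) and Hspa5, the main chaperone of the compartment, by 0.82 ± 0.19 (adjusted p = 0.0497, limma). Hspa5 did not pass without any 1 of the 4 supernatants (adjusted p = 0.0519 to 0.168), and Manf did not without control 16 (adjusted p = 0.0962) or sleep-deprived 15 (adjusted p = 0.106).

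Xbp1, a transcription factor of the unfolded protein response whose RNA is spliced by the sensor IRE1, was called at 1437223_s_at (1.69 ± 0.28, adjusted p = 0.0117, limma, with 0.0639 without control 13 and 0.0578 without sleep-deprived 15), a kind of probe set that can bind several transcripts, and read 0.62 at 1420012_at (adjusted p = 0.162, limma). Members of the same list that read lower included the chaperone gene Canx (−0.36), the sensor gene Atf6 (−0.57) and Hspa13, a chaperone of the microsomes, at 1429502_at (−0.48), whereas Hspa13 was called higher at 1433772_at (0.85, adjusted p = 0.0456, limma), a call lost without any 1 of the 4 supernatants (adjusted p = 0.0681 to 0.107). The stress element, CCAAT followed after 9 bases by CCACG and bound by ATF6 together with NF-Y, was searched in the same way and was in 39 of 32851 promoters (0.119%) and in 9 of 24 matched genes of the list. The promoters of Creld2 (chr15:88819396-88819695, plus strand) and Hspa5 (chr2:34771840-34772139, plus strand) are shown as called genes with the element, which is in capitals and lies on the opposite strand in Creld2.
Creld2: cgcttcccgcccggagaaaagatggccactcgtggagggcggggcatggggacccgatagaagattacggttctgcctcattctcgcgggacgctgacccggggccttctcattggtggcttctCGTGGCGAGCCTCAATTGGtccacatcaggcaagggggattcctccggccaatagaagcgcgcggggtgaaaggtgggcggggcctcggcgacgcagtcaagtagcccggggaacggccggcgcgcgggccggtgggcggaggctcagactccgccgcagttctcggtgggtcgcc
Hspa5: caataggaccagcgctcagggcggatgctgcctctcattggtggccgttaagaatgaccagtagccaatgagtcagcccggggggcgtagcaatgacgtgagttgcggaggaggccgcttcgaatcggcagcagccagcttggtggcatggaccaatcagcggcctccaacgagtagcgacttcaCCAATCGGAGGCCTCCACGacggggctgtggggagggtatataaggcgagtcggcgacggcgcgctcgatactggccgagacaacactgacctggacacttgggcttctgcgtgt

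**Figure D4:**
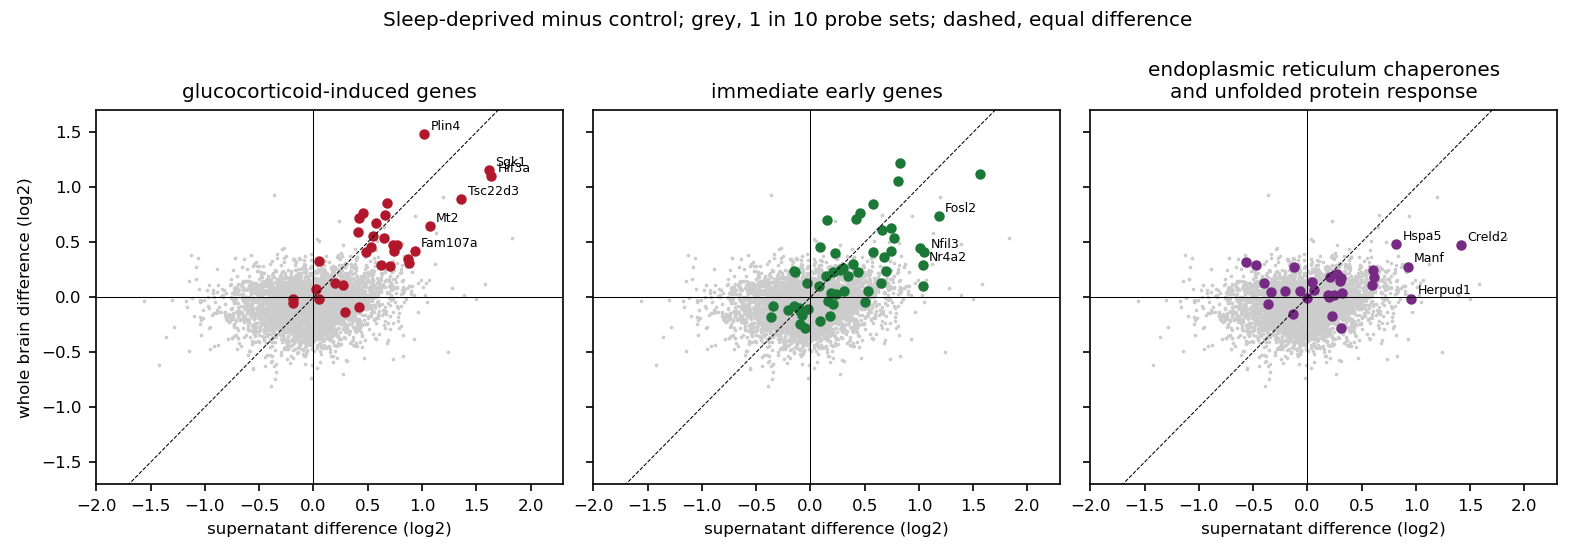
Difference between sleep-deprived and control arrays (log2) in supernatant (horizontal axis) and whole brain (vertical axis) for members of 3 gene lists (coloured points, called members named) over 1 in 10 of all probe sets (grey). Hif3a, Sgk1, Tsc22d3 and Mt2 lie below the dashed line of equal difference, Plin4 lies above it, and Herpud1 lies near 0 on the whole brain axis.

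The remaining lists of gene function had 0 members called in supernatant at the probe set that stands for each gene, the one with the highest mean. Cytosolic heat shock genes read higher in 14 of 17 cases, with a median of 0.30 in supernatant and 0.07 in whole brain. The inducible Hspa1b read 6.85 and 6.33 in sleep-deprived supernatants 14 and 15, against 4.96 and 5.99 in control supernatants 13 and 16, a difference of 1.11 (adjusted p = 0.165, limma) that was 0.60 without control 13. The co-chaperone gene Dnajb5 was represented in the list by 1421961_a_at (0.73, adjusted p = 0.0936, limma), while its probe set 1450436_s_at was called (1.39 ± 0.21, adjusted p = 0.00872, limma). Nuclear genes of oxidative phosphorylation read higher in 29 of 33 cases, with a median of 0.22 in supernatant and 0.02 in whole brain. Array 13 was the lowest of the 4 supernatants on this list, at 9.63, against 9.78 in control 16 and 9.95 and 9.94 in sleep-deprived 14 and 15. Glucose and glycogen genes read higher in 17 of 22, with a median of 0.25 in supernatant and 0.03 in whole brain, and 0.09 in supernatant without sleep-deprived 15. The glucose transporter gene Slc2a1 of the blood-brain barrier read 0.62 in both extracts at 1426600_at, without passing in supernatant (adjusted p = 0.170, limma), where it was 0.22 without sleep-deprived 15 and 1.02 without 14. At its probe set 1434773_a_at Slc2a1 read 9.37 and 9.83 in sleep-deprived supernatants and 8.47 and 8.74 in control supernatants, and was called (1.00 ± 0.19, adjusted p = 0.0206, limma), but not without control 13 (adjusted p = 0.0933) or sleep-deprived 15 (adjusted p = 0.114). Ribosomal protein genes had a median of 0.03 in supernatant and −0.0086 in whole brain. In all 11 lists, 12 further probe sets of list genes were called, all higher (0.44% of all probe sets were). They lie in Atf4, Csnk1d, Dio2, Dnajb5, Fam107a, Homer1, Hspa13, Mt1, Slc2a1, Xbp1 and Zbtb16. Of these genes only Dio2 and Fam107a were also called at the probe set that stands for the gene. How many further probe sets the list genes have was not counted, so the 12 have no share of their own.

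Cirbp (1416332_at), the cold-inducible RNA-binding protein, read 6.93 and 7.13 in sleep-deprived supernatants 14 and 15, and 7.19 and 8.06 in control supernatants 13 and 16. The groups did not overlap, but array 13 lay next to sleep-deprived 15. Its difference was −0.59 in supernatant (adjusted p = 0.299, limma), −1.03 without control 13 and −0.16 without control 16, and −0.87 in whole brain (adjusted p = 0.0935, limma, 8 arrays). Cirbp is thus a gene of the known sleep loss response at which array 13 stood close to the sleep-deprived arrays. Cholesterol synthesis genes read higher in 7 of 19 cases, with a median of −0.09 in supernatant and −0.16 in whole brain. The sterol dehydrogenase gene Nsdhl had the lowest difference of these, −0.71 (adjusted p = 0.114, limma), while Hmgcs1, an early enzyme of the pathway, read 0.44 (adjusted p = 0.279, limma).

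The largest called rises after Crh were Tmem204 (1.93), AI467606 (1.83), Xbp1 (1.69), Sh3bgrl (1.67), Hif3a (1.64), Zkscan3 (1.64), Sgk1 (1.62), Adpgk (1.57), Cxxc1, Stap2 (1.47) and Rgcc (1.42). Of these and Crh, only Crh, Hif3a, Sgk1 and Adpgk stayed called without each supernatant in turn. Sh3bgrl read 1.08 without control 13, and without control 16 Cxxc1 read 0.86 (adjusted p = 0.202) and Stap2 0.89 (adjusted p = 0.158). Tmem204, a membrane protein of vessels, read 5.90 and 8.19 in sleep-deprived supernatants 14 and 15, against 5.20 and 5.03 in control supernatants 13 and 16, and its difference was 0.79 without sleep-deprived 15. The summed endothelial and pericyte markers were also highest in sleep-deprived 15, with a mean of 6.82, against 6.22 in sleep-deprived 14 and 6.44 and 6.27 in controls 13 and 16, and their part in Tmem204 was not tested. Of the 198 probe sets called higher, 31.3% had the suffix _s_at or _x_at, given to probe sets that more than 1 transcript may reach, as had 10.1% of all probe sets. Tmem204, Xbp1, Sh3bgrl, Zkscan3 and Adpgk were read here at such probe sets. Adpgk also averaged below the array medians, at 5.78 in sleep-deprived and 4.21 in control supernatants. In whole brain 75.3% of the 198 also read higher, where 33.3% of all probe sets did, and the median of the 198 there was 0.12.

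Genes with the largest called falls were Poglut3 (−1.71), Raly (−1.56), Tfg (−1.49), Riok2 (−1.46), Tcf7l2 (−1.46), Hgf (−1.43), Zer1 (−1.41), 2210408I21Rik (−1.38), Rapgef5 (−1.36), Kansl1l (−1.35), Herc4 (−1.32) and Zfp28 (−1.31). Most lay at low levels. Tcf7l2 (3.54 in sleep-deprived and 5.00 in control supernatants), 2210408I21Rik, Zfp28, Kansl1l and Herc4 averaged below the array medians in both groups. Poglut3, Raly, Riok2, Hgf and Rapgef5 did so in sleep-deprived supernatants only, and Tfg and Zer1 in neither group. Hgf (1451866_a_at), the hepatocyte growth factor, read 4.99 and 4.66 in sleep-deprived supernatants 14 and 15, and 6.24 and 6.27 in control supernatants 13 and 16. It fell by 1.43 on the log2 scale (adjusted p = 0.00780, limma), stayed called without each supernatant in turn, and read −0.62 in whole brain. Poglut3 (1453071_s_at), an O-glucosyltransferase, read 4.34 and 4.69 in sleep-deprived supernatants and 5.99 and 6.46 in control supernatants, a fall of 1.71 on the log2 scale (adjusted p = 0.00872, limma), and 0.02 in whole brain. Poglut3, Tfg, Tcf7l2, Hgf and Rapgef5 were the 5 of these 12 that stayed called without each supernatant in turn, although Tcf7l2, a transcription factor of the Wnt pathway, fell at 1429427_s_at and read 0.19 at 1429428_at. Of the 269 probe sets called lower, 53.2% had no gene symbol, where 20.3% of all probe sets had none. Their median in whole brain was −0.09, and 33.1% of them read higher there, near the 33.3% of all probe sets. All probe sets without a symbol averaged 5.50 and 5.53 in sleep-deprived supernatants 14 and 15, against 5.73 and 5.64 in control supernatants 13 and 16. The part of this in the lower calls was not tested.

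The probe sets called in whole brain were then read in supernatant, where they were chosen on other arrays. The 16 higher ones include a pair of probe sets each for Egr2, Zbtb16 and Homer1. All 16 also read higher in supernatant (43.9% of all probe sets did), 15 without overlap between groups (14.7%), and 8 were called higher there (0.44%). Their median difference was 1.15 in supernatant and 1.02 in whole brain. The supernatant calls share their spread with the whole brain arrays that chose these probe sets. The count of 8 is therefore not independent of that choice. Called in both were Plin4, Sgk1, Hif3a, Dio2 (1418937_at), Zbtb16 (1419874_x_at), 1442025_a_at (which has no single gene symbol), Tsc22d3 and Homer1 (1436387_at). Zmym1, a zinc finger protein, read 0.62 in supernatant (adjusted p = 0.206, limma) and 1.00 in whole brain. The 5 lower ones had a median of −0.30 in supernatant and −0.81 in whole brain, and 4 of them read lower in supernatant.

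Creb5 (1457222_at), of the CREB family of transcription factors, was the 1 probe set called lower in both extracts. It read 6.19 and 6.16 in sleep-deprived supernatants 14 and 15, against 7.28 and 7.04 in control supernatants 13 and 16, and fell by 0.98 on the log2 scale (adjusted p = 0.0213, limma), against −0.81 in whole brain. Without control 13 or sleep-deprived 15 Creb5 did not pass (adjusted p = 0.0959 and 0.0800). Opalin, a myelin membrane protein, read −0.22 in supernatant (adjusted p = 0.662, limma) and −0.93 in whole brain. The oestrogen receptor gene Esr1 (1421244_at) went the other way, with 4.30 and 4.76 in sleep-deprived supernatants 14 and 15 and 4.14 and 3.72 in control supernatants 13 and 16. In whole brain Esr1 read 3.78, 4.04, 3.84 and 3.68 after sleep deprivation and 4.50, 4.52, 4.72 and 4.76 in controls. The groups did not overlap in either extract, and all of these values are below the array medians. The difference between extracts was 1.39 (adjusted p = 0.120, limma).

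No probe set passed the test of a difference between the supernatant and whole brain effects in limma (0% called), with 4506 at an unadjusted p under 0.05 (10% of those tested). Without control 16 there were 18 higher and 10 lower, and without sleep-deprived 14 there were 362 and 825. Across all probe sets the supernatant and whole brain differences correlated at r = 0.15, as a description over probe sets that are not independent, and at 0.0058 with array 13 grouped by its title. The differences spread more widely in supernatant, with an SD of 0.33 over probe sets, against 0.17 in whole brain. Supernatant means rest on 2 arrays a side against 4 in whole brain, and arrays spread more within supernatant groups. Both widen the differences, so the 2 SDs do not compare the sizes of the responses.

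**Figure D5:**
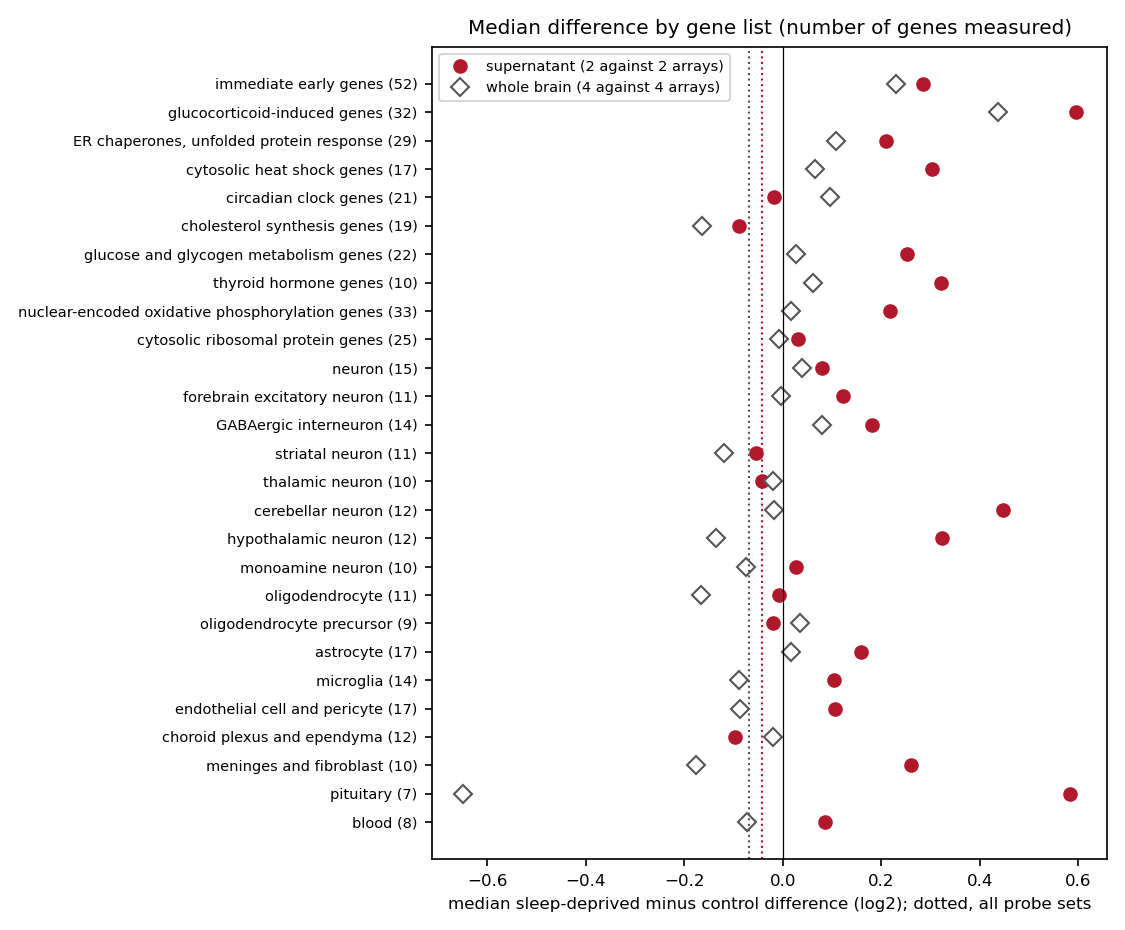
Median difference between sleep-deprived and control arrays (horizontal axis, log2) for each gene list (rows, with the number of genes measured), in supernatant (filled circles) and whole brain (open diamonds). Dotted lines are the medians of all probe sets, −0.04 in supernatant and −0.07 in whole brain. Glucocorticoid-induced genes have the largest supernatant median of the lists of gene function, 0.60, and the pituitary list is high in supernatant and low in whole brain.

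Of 194 measured genes in 17 marker lists of cell types 2 were called (1.03%), near the 1.04% of all probe sets, so this count sets the markers apart in no way. Ugt8a (1419063_at), an enzyme of myelin lipid synthesis, read 6.69 and 6.49 in sleep-deprived supernatants 14 and 15, and 7.66 and 7.45 in control supernatants 13 and 16. It fell by 0.96 on the log2 scale (adjusted p = 0.0295, limma, and 0.114 without control 13 or 0.120 without sleep-deprived 15), while the oligodendrocyte list as a whole had a median of −0.0086 with 5 of 11 higher, and Mbp, the major myelin protein, read 0.41. The haemoglobin gene Hbb-b2 rose by 0.97 ± 0.19 (adjusted p = 0.0255, limma, and 0.0653 without control 13 or 0.134 without sleep-deprived 15), with 6.75 and 7.21 in sleep-deprived and 6.05 and 5.97 in control supernatants. All supernatant values of Hbb-b2 lay below those of whole brain, 9.65 to 9.85 after sleep deprivation and 9.44 to 9.78 in controls. The pituitary list had the largest median of the marker lists, 0.58 in supernatant and −0.65 in whole brain, with a mean of 5.12 and 7.57 in sleep-deprived supernatants 14 and 15 and 5.59 and 5.33 in control supernatants 13 and 16. All 7 of its genes read higher in the sleep-deprived mean and 0 passed. Neuron markers had a median of 0.08, astrocyte markers 0.16 and microglia markers 0.10 in supernatant, with 0 called. The mean of 17 astrocyte markers was 9.13 and 9.07 in sleep-deprived supernatants 14 and 15, and 8.95 and 9.10 in control supernatants 13 and 16.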

How the data were processed

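RNA of 12 arrays was compared, 4 of pull-down supernatants and 8 of whole brain. The authors deposited log2 intensities per probe set, made with the affy package and RMA per the submitters' processing notes; versions, and whether all extracts were normalized together, are not given in the sources used here. Values were used as deposited. Of 45101 probe sets 64 controls were left out. The array annotation, of 2016, gave 1 gene symbol for 34945 probe sets, several for 932 and none for 9160, over 18193 genes. Arrays have no read depth, and their number limits the precision.

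Differences came from limma 3.58.1 under R 4.3.3 (lmFit, eBayes, two-sided, Benjamini-Hochberg, 0.05), fitted on the 12 arrays with 4 group means, and on the 8 whole brain arrays alone for the whole brain calls. Pull-downs stayed out. A list gene was read at its probe set with the highest mean, designed for 1 gene where there was one. Of 487 genes in 28 lists 443 were measured. The text names list members, the 12 largest calls in each direction and every whole brain call; a few other probe sets of these genes were chosen after their values were seen. The members and lists were chosen with earlier results of these data known. Promoters are from RefSeq (GRCm38.p6). The fit was tested on simulated arrays drawn with the same spread in both extracts. That test cannot show how the calls fare where the spread differs between extracts, as it does here. Alternatives were other groupings of array 13, other normalizations, filters, weights and array sets.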

Additional observations from a re-analysis of the deposited data

Results flagged for a closer look

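Groups of 4 whole brain arrays were searched for 1 array far from the other 3, in 48 groups of values, and 2 stood out, near the 1 in 20 that chance gives. Fos (1423100_at) read 6.108 in whole brain control 24, against 5.643 to 5.709 in the other 3 controls. The mean of the glucocorticoid-induced genes was 8.11 in sleep-deprived whole brain 19, against 7.968 to 7.981 in the other 3 sleep-deprived brains. Both arrays enter the whole brain values set beside the supernatant ones, and the supernatant groups of 2 were too small for such a search.

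Esr1 and Atf6 had every sleep-deprived array on one side of the controls in supernatant and on the opposite side in whole brain. Only the probe sets called in whole brain, the largest supernatant calls and selected others named here were searched. How many of all probe sets show this was not counted. In supernatant alone 14.7% of all probe sets were higher without overlap and 21.2% lower. For Esr1 (1421244_at) the supernatant difference exceeded that of whole brain by 1.392 (adjusted p = 0.120, limma). For Atf6 (1453288_at) the supernatant difference was −0.57 and that of whole brain 0.32, which gives −0.8862 for supernatant minus whole brain (adjusted p = 0.162, limma). Atf6 read 8.36 and 8.09 in sleep-deprived supernatants 14 and 15, and 8.75 and 8.84 in control supernatants 13 and 16.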

How the results depend on the processing

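The supernatant calls depend on the spread that is assumed and on single arrays. Against 198 higher and 269 lower, the counts were 358 and 359 after quantile normalization, 279 and 192 after centring, 441 and 414 with probe sets above the median level only, 1 and 0 with array weights, 1 and 0 with 1 variance per extract (chosen after seeing the data), 0 and 0 with the 4 supernatants alone, 0 and 0 in 1 fit of all 24 arrays (573 and 470 at an unadjusted p under 0.05) and 17 and 9 with array 13 grouped by its title, 0 of them shared. Leaving out 1 array gave 69 to 1020 higher and 91 to 1876 lower, the ends being without sleep-deprived supernatant 15 and without 14. Without control 13 they were 106 and 170, without control 16 413 and 223, without whole brain control 23 118 and 166, without control 25 129 and 196, and without sleep-deprived whole brain 19 123 and 164.

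Of 47 named probe sets called in supernatant, 24 stayed called without control 13, 22 without sleep-deprived 15, 18 without each supernatant in turn, 44 after quantile normalization and 1 with 1 variance per extract. None of the 47 changed direction under these alternatives, but most of them could not have shown a change. Every called probe set had supernatant groups without overlap, so leaving out 1 supernatant cannot reverse its difference. The fit with 1 variance per extract leaves the difference itself as it was. Of the alternatives in this count, only quantile normalization could have turned a direction. Between extracts the 0 and 0 became 18 and 10 without control 16, 362 and 825 without sleep-deprived 14, 2 and 3 above the median level, and leaving out 1 array gave 0 to 362 higher and 0 to 825 lower. In whole brain the 16 higher and 5 lower became 18 and 2 after quantile normalization, 40 and 6 after centring, 41 and 14 above the median level and 9 and 1 in the 12-array fit, and 1 to 14 and 0 to 2 with 1 array left out (1 and 0 without sleep-deprived 19 or 21). The mean of the 16 in array 13 minus that in control 16 was −0.34, and −0.41 after centring. Minus the sleep-deprived supernatants it was −1.23, −1.30 after quantile normalization and −1.33 after centring.

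Grouping array 13 by title turned Egr2 (1427683_at) to −0.20, Fosb to −0.038, Egr1 to −0.078, Homer1 (1437363_at) to −0.54, Ptgs2 to −0.33, Thra to −0.19, Hmgcs1 to −0.021 and Cdkn1a to −0.15. Other Homer1 probe sets turned to −0.42 (1425671_at) and −0.20 (1421768_a_at) without sleep-deprived 14, 0.17 (1425710_a_at) without 15, −0.27 and −0.06 (1437363_at) without control 13 and sleep-deprived 14, and 0.34, 0.37 and 0.029 (1439662_at) without control 16, without 15 and after centring. Probe set 1447223_at turned to 0.08 without control 16 and 0.17 without 15. With 1 array left out, Homer1 ran from −0.42 to 0.94 (1425671_at), −1.32 to 0.17 (1425710_a_at), −0.27 to 0.81 (1437363_at), −0.44 to 0.37 (1439662_at) and −0.20 to 0.37 (1421768_a_at), and 1447223_at from −0.77 to 0.17. The cause was not tested in any of these.

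No paired analysis was possible because the supernatant groups share no replicate number, nor do the whole brain groups.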

Other observations

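Vip, a peptide of interneurons and of the suprachiasmatic nucleus, read 6.18 and 6.28 in sleep-deprived supernatants 14 and 15, and 4.61 and 5.85 in control supernatants 13 and 16, a difference of 1.00 (adjusted p = 0.133, limma). Of 12 hypothalamic markers 9 read higher and 3 lower, 5 higher without overlap (14.7% of all probe sets) and 1 lower without overlap (21.2%), and 0 were called in limma (3 at an unadjusted p under 0.05). The peptide genes Hcrt (0.31), Pmch (0.33) and Cartpt (0.45) were among the higher, and the members that read lower were Oxt (−0.10), Avp (−0.094) and Sim1, a transcription factor (−0.50). Mobp, a structural myelin protein, read 9.84 and 10.66 in sleep-deprived supernatants and 9.23 and 9.45 in control supernatants (0.90, adjusted p = 0.0559, limma), whereas Aspa, the oligodendrocyte enzyme that splits N-acetylaspartate, read −0.65 (adjusted p = 0.0998, limma). Spry4, a feedback inhibitor of growth factor signalling, read 7.58 and 8.03 in sleep-deprived supernatants and 6.80 and 6.73 in control supernatants, a difference of 1.04 in supernatant (adjusted p = 0.0566, limma) and 0.11 in whole brain.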
